A study of Drosophila melanogaster with 6 samples.

Results

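The respiratory chain of the mitochondrial inner membrane is built from nuclear and mitochondrial genes, and its nuclear subunits were followed here in Drosophila S2 cells after knockdown of the DEAD-box RNA helicase Hlc. Members were all genes of the count table whose symbol begins with ND-, COX and a digit, ATPsyn, UQCR, or Sdh followed by A to D. The rule took in 80 of 23882 features, of which 40 belong to complex I, 6 to complex II, 8 to complex III, 11 to complex IV and 15 to complex V. By their names and known roles, 62 of them are subunits and 18 are paralogues of a subunit (names ending in L, L1 or L2). No assembly factor carries such a symbol.

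Poly(A) RNA was sequenced on day 3 from 6 libraries of S2 cells, a line established from embryos that takes up double-stranded RNA (dsRNA). Of these, 2 had received Hlc dsRNA 2, 2 had received Hlc dsRNA 3 and 2 had received control dsRNA against beta-galactosidase, a bacterial gene. No mutant allele or other agent is named for any group, and all groups share the cell line and the exposure to a dsRNA. The libraries of a group are described as biological replicates, but nothing says whether cultures were handled apart, so p-values measure the spread between these libraries, which may be partly technical. In bulk RNA, fewer cells of a type and less RNA per cell cannot be told apart.

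Complex I takes electrons from NADH, complex II takes them from succinate and is also an enzyme of the citric acid cycle, complex III passes them to cytochrome c, and complex IV passes them to oxygen. Complexes I, III and IV pump protons, and complex V, the ATP synthase, uses the gradient to make ATP. Complex II is encoded in the nucleus alone, whereas the other complexes also hold subunits encoded in mitochondrial DNA. Nuclear subunits are translated in the cytosol, imported and assembled with the mitochondrial ones.

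The target itself was at 16.1, 19.7, 20.02 and 19.2 CPM in the Hlc dsRNA libraries, against 317 and 316 CPM in the controls (log2 fold change -4.08, SE 0.07, adjusted p 3.48e-08 by edgeR's quasi-likelihood test with Benjamini-Hochberg adjustment). Library totals ran from 56195472 to 84283999 counts. CPM are counts scaled to a common library size, here the library total adjusted by TMM factors, which were 1.13 to 1.16 in the Hlc dsRNA libraries and 0.751 and 0.778 in the controls. The labels call the cells embryonic stem cells, while S2 cells are known to resemble plasmatocytes, the phagocytic blood cells. Of 8 plasmatocyte markers, srp, crq and eater stood at 42.6 CPM or more in every library, and the defining markers Hml and NimC1 at no more than 0.942 and 0.153 CPM. The markers summed to 571 to 700.4 CPM in the Hlc dsRNA libraries and to 893 and 949 CPM in the controls, with 2 markers higher and 3 lower. Their part in the results was not tested.

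Of the 80 members, 65 passed the filter on low counts: 61 subunits and 4 paralogues. The subunit that did not pass was ND-B8 (FBgn0040705, chromosome 2L, 4454626 to 4455207 in assembly BDGP6.54, plus strand, 3 exons), an accessory subunit of complex I. It had 0 counts in all 6 libraries, which allows up to 0.0616 CPM in any one of them for counting error alone. The lowest count of any other subunit in any library was 832. Of its 460 exonic bases, 71 overlap the gene Gs1l on the opposite strand, and how the counting treated them is not given in the sources used here.

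The paralogues were nearly silent beside the genes they resemble. Together the 18 paralogues had 510 counts over all libraries, no library held more than 55 counts of one, and the largest share of the resembled subunit's counts was 0.210%, for ND-51L1. ND-20L, ND-24L, ND-B14.5AL, SdhAL, UQCR-14L and ATPsynCF6L were at 0 everywhere. Below the filter with few counts summed over all libraries were ND-49L (4 counts), ND-51L2 (25), SdhBL (8), UQCR-11L (7), COX4L (28), COX5BL (3), COX6AL (9) and ATPsynGL (5). Paralogues of this kind are known in flies for expression in the testis. Testis germ line markers summed to 28 to 99 counts in the Hlc dsRNA libraries and to 20 and 33 counts in the controls, with can at 0 throughout.

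Among the tested paralogues, ND-51L1 had 8, 25, 13 and 29 counts with Hlc dsRNA, against 33 and 55 in the controls. It fell (log2 fold change -1.69, SE 0.56, adjusted p 0.0329 by edgeR's quasi-likelihood test with Benjamini-Hochberg adjustment over 11293 features). The call was lost without control replicate 1 (adjusted p 0.0722), control replicate 2 (0.17), dsRNA 3 replicate 1 (0.0858) or dsRNA 3 replicate 2 (0.0573) in the same edgeR test. COX7AL (log2 fold change -1.45), ATPsynepsilonL (0.18) and ATPsynbetaL (1.10) were not called.

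The lowest of the 61 tested subunits had a mean of 18.6 CPM over the libraries, a level that 5686 of the 11293 features tested reached. Per kb of exonic length, the levels of the subunits ran from 20.6 to 645 CPM per kb with Hlc dsRNA (median 112) and from 18.7 to 569 CPM per kb in the controls (median 122). They made up 1.07 to 1.27% of all counts in the Hlc dsRNA libraries and 0.824 and 0.778% in the controls. On the TMM scale, their summed level was 9195 to 11274 CPM with Hlc dsRNA and 10971 and 10010 CPM in the controls, so the sums overlapped.

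**Figure D1:**
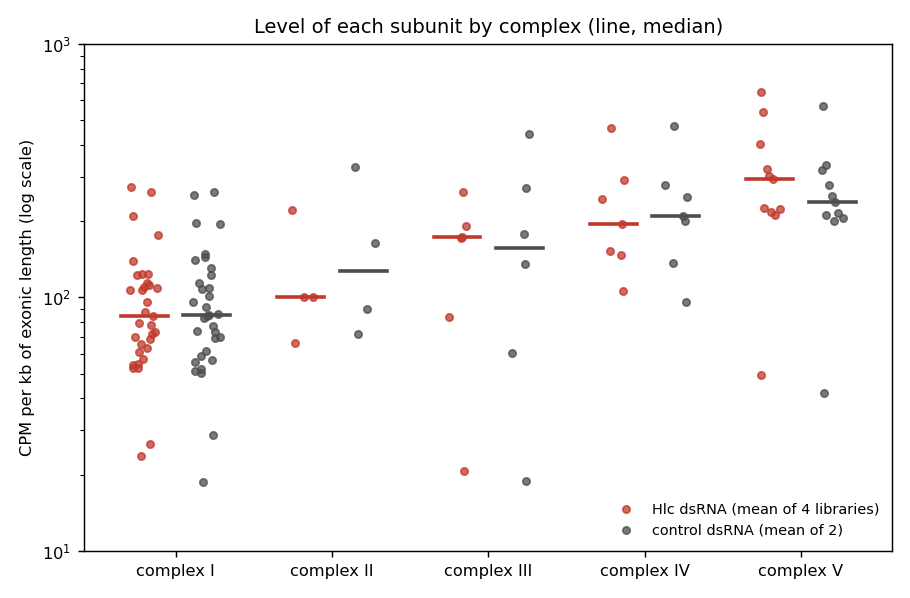
Level of each of 61 subunits in CPM per kb of exonic length (log axis), by complex, as the mean of 4 Hlc dsRNA libraries (red, left) and of 2 controls (grey, right). Lines are medians: complex V has the highest (294 with Hlc dsRNA, 238 in the controls) and complex I the lowest (84.7 and 84.96).

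The complexes differed in level. The median level was 84.7 CPM per kb with Hlc dsRNA and 84.96 in the controls for complex I, 100 and 127 for complex II, 173 and 157 for complex III, 194 and 210 for complex IV, and 294 and 238 for complex V, in the same order of groups. The gene with the highest level per length was ATPsyngamma, which codes for the rotating central shaft of the ATP synthase, at 645 ± 81.0 CPM per kb with Hlc dsRNA and 569 ± 46.3 in the controls (SD, n = 4 and 2). COX5A, a matrix-side subunit of cytochrome c oxidase, stood at 466 ± 30.7 and 474 ± 52.6 CPM per kb in the same groups. The groups overlapped in both genes.

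In complex I the highest levels per length were those of ND-ACP, an acyl carrier protein that also serves mitochondrial fatty acid synthesis (261 CPM per kb with Hlc dsRNA, 262 in the controls), and ND-MLRQ (273 and 253). ND-MLRQ carries a complex I name, although its mammalian counterpart is assigned to complex IV. At the low end of the controls were ND-MWFE, a small membrane subunit of complex I (23.6 CPM per kb with Hlc dsRNA, 18.7 in the controls), and UQCR-11 (20.6 and 18.9), both named after their values were seen.

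Most subunits moved little. Comparing both Hlc dsRNAs with control, 14 of the 61 tested subunits were called higher, 12 lower and 35 were not called (adjusted p under 0.05), which is 42.6% called, against 64.8% of all 11293 features tested (32.2% higher and 32.6% lower). Among the 5686 features whose mean CPM was at least that of the lowest subunit, 80.4% were called. The median log2 fold change of the subunits was 0.06, against 0.04 for all features. Their interquartile range was -0.12 to 0.16, against -0.60 to 0.76 for all features. The subunits were also split at 1000 exonic bases, after seeing the data. Of 40 shorter ones 10 were higher and 4 lower (35% called, against 54.3% of all features of that length). Of 21 longer ones 4 were higher and 8 lower (57.1% called, against 67.4%). With a trend on length removed from every library, 11 subunits were higher and 15 lower. What part length had in the directions was not tested beyond these values.

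Large changes were rare among the subunits. UQCR-C1 alone changed by more than 1 on the log2 scale, or 1 of 61 subunits, against 34.5% of all features and 23.9% of features at or above the level of the lowest subunit. Within 0.5 of no change were 55 of 61 subunits (90.2%), against 39.4% of all features and 47.7% of those at such levels. The Hlc dsRNA libraries lay above both controls for 8 subunits and below both for 11, and overlapped them for 42. For all features these arrangements made up 36.2% above and 35.4% below.

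**Figure D2:**
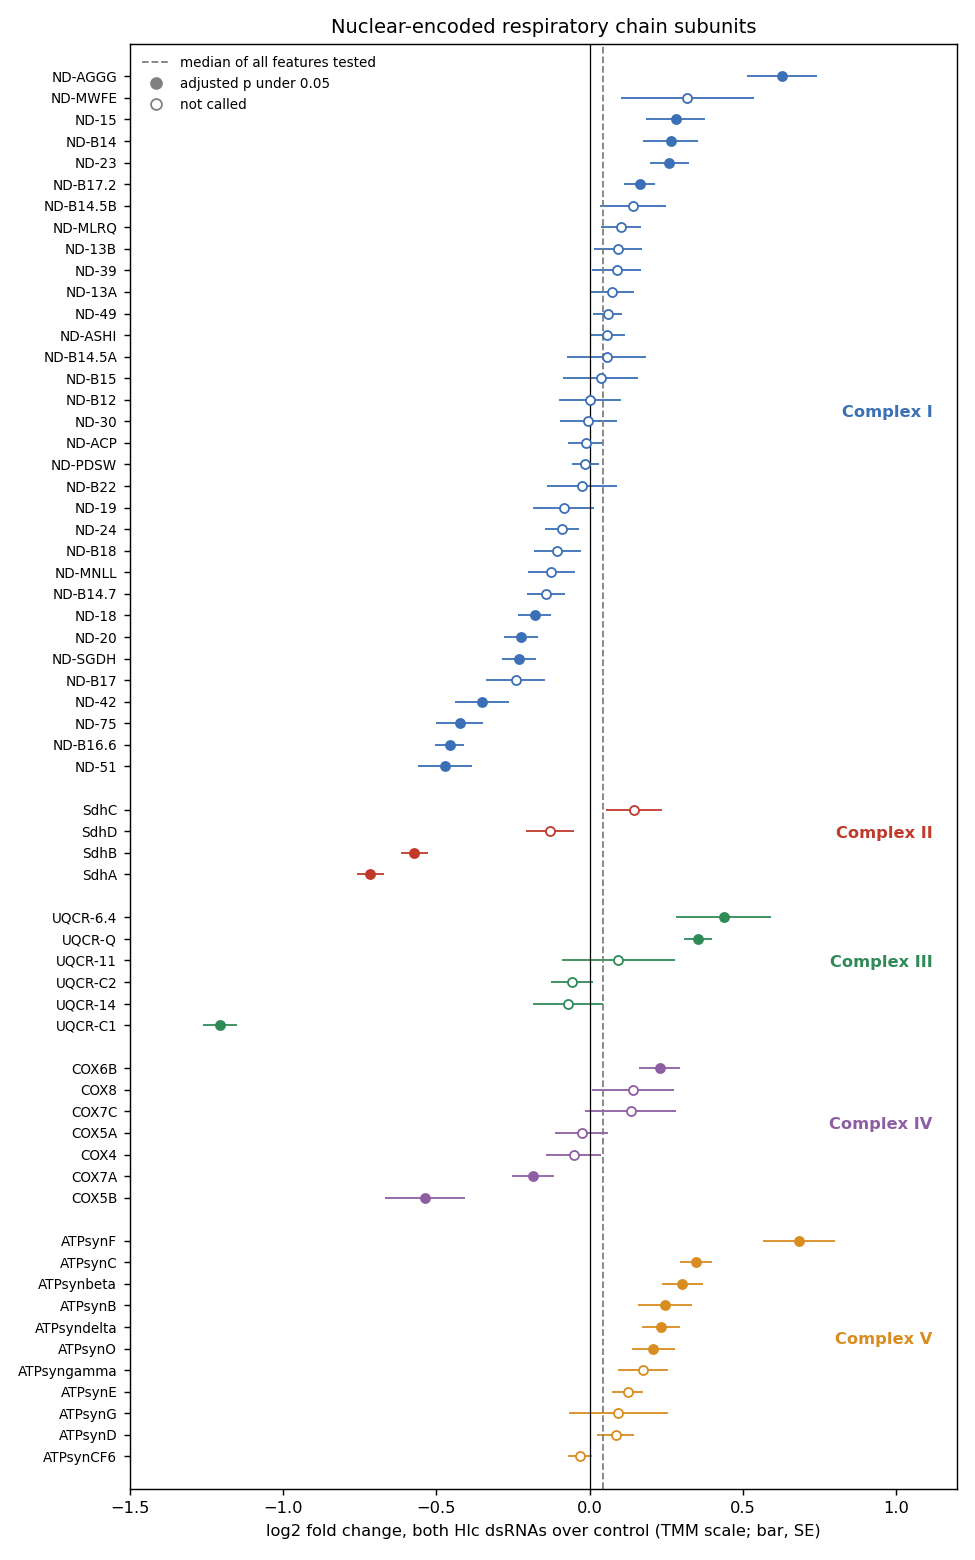
Log2 fold change of both Hlc dsRNAs over control on the TMM scale for each of 61 subunits (x axis), by complex and in order of size; bars are the SE implied by the test, filled points have an adjusted p under 0.05. Points cluster near the median of all features (dashed line, 0.04), UQCR-C1 stands apart at -1.21, and 10 of 11 complex V points lie above 0.

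Directions depend on the scaling, because control and Hlc dsRNA libraries carry different TMM factors. Upper-quartile factors gave 26 subunits higher and 7 lower, and library size alone 55 higher and 2 lower. The median log2 fold change over the whole table was then 0.19 and 0.62, in place of 0.04. Rises and falls below are against 0 on the TMM scale, where the median of all features was 0.04. Of 27 members called, 11 kept call and direction in every alternative other than library size alone, and 7 of these also there. The 7 are UQCR-C1, UQCR-Q, ND-AGGG, ATPsynF, ATPsynC, ATPsynbeta and SdhA.

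Within complex II, succinate dehydrogenase, the catalytic subunits were lower while the membrane anchors were not called. The 2 pairs also differ in length: SdhA and SdhB have 2750 and 1219 exonic bases, SdhC and SdhD 906 and 894. With the trend on length removed, 3 complex II subunits were called lower and 0 higher. SdhA is the flavoprotein that oxidises succinate (FBgn0261439, chromosome 2R, 19391863 to 19395971, minus strand). It had 262, 263, 282 and 295 CPM with Hlc dsRNA, against 463 and 440 CPM in the controls. All Hlc dsRNA libraries lay below both controls, and SdhA fell (log2 fold change -0.71, SE 0.04, adjusted p 7.25e-06, edgeR's quasi-likelihood test with Benjamini-Hochberg adjustment). The fold change was -0.78 with dsRNA 2 and -0.65 with dsRNA 3.

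SdhB, the iron-sulfur subunit that hands electrons on from SdhA (chromosome 2R, 6807626 to 6809172, plus strand), had 264, 271, 262 and 280 CPM with Hlc dsRNA, against 401 and 400 CPM in the controls. The groups did not overlap, and SdhB fell (-0.57, SE 0.04, adjusted p 2.24e-05 by the same edgeR test). With library size alone SdhA was still called lower, by less (-0.13, adjusted p 0.0365 by edgeR), and SdhB was at 0.01 and not called. Complex II as a whole took 0.0782 to 0.0813% of the counts in the Hlc dsRNA libraries and 0.0763 and 0.0761% in the controls.

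The anchors SdhC and SdhD hold the enzyme in the membrane and bind ubiquinone. SdhC had 93.2, 110, 87.3 and 74.3 CPM with Hlc dsRNA, against 84.5 and 79.2 CPM in the controls, and SdhD had 62.6, 62.5, 59.6 and 50.8 against 67.8 and 60.7 CPM. Groups overlapped in both genes, and neither was called (log2 fold change 0.15, adjusted p 0.199 for SdhC and -0.13, adjusted p 0.191 for SdhD by edgeR). With dsRNA 2 alone SdhC was called higher (0.31, adjusted p 0.0357 by edgeR), and with dsRNA 3 it was at -0.02. The dsRNA 2 call was lost without control replicate 1, control replicate 2 or dsRNA 2 replicate 2, and with a trend on length removed.

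Ratios within a library do not depend on a scaling factor for the library, but a trend on length does not cancel between genes of unlike length. The mean ratio of SdhA over SdhC was 0.856 with dsRNA 2 and 1.19 with dsRNA 3. Per kb, SdhA over SdhC was 0.926, 0.786, 1.07 and 1.31 with Hlc dsRNA, against 1.81 and 1.83 in the controls. SdhB over SdhD was 3.10, 3.17, 3.22 and 4.05 with Hlc dsRNA, against 4.34 and 4.82 in the controls. In both ratios all Hlc dsRNA libraries lay below the controls. An exact two-sided permutation test gave p = 0.0667 for each, the smallest that 15 arrangements of 4 and 2 libraries allow. SdhA over SdhB differed less, at 0.454 ± 0.0226 with Hlc dsRNA and 0.5002 ± 0.0172 in the controls (SD, n = 4 and 2; exact permutation p = 0.133). The 19 ratios computed, and SdhC, SdhD and the other genes in them that the rule for named genes does not give, were chosen after the values were seen. Their p-values and lack of overlap, here and below, therefore add no support beyond the values of the genes.

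**Figure D3:**
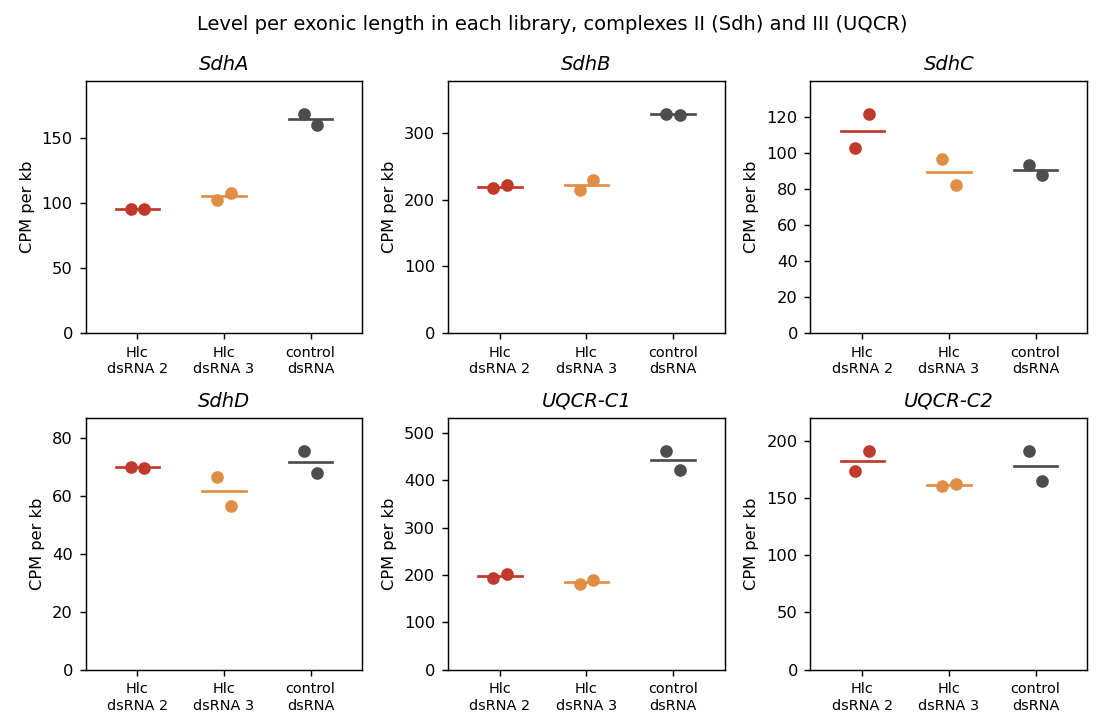
Level in CPM per kb of exonic length (y axis, from 0) in each library of Hlc dsRNA 2, Hlc dsRNA 3 and control, for the 4 complex II genes and the core proteins UQCR-C1 and UQCR-C2 of complex III; points are libraries and lines are means of 2. SdhA, SdhB and UQCR-C1 sit lower with each Hlc dsRNA than in the controls, while SdhC, SdhD and UQCR-C2 overlap.

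The deepest fall of any subunit was in complex III. UQCR-C1, one of a pair of large core proteins on its matrix side and a relative of the mitochondrial processing peptidases (FBgn0038271, chromosome 3R, 14890231 to 14892387, plus strand), had 315, 330, 295 and 310 CPM with Hlc dsRNA, against 755 and 687 CPM in the controls. The highest Hlc dsRNA library was below the lower control. It fell by 1.21 on the log2 scale (SE 0.05, adjusted p 1.71e-06, edgeR's quasi-likelihood test with Benjamini-Hochberg adjustment), with -1.16 for dsRNA 2 and -1.25 for dsRNA 3, and -0.62 with library size alone.

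The companion core protein UQCR-C2, named after its value was seen, had 292, 322, 270 and 273 CPM with Hlc dsRNA, against 323 and 278 CPM in the controls, and was not called (-0.06, adjusted p 0.499 by edgeR). UQCR-C1 over UQCR-C2 per kb was 1.12, 1.06, 1.13 and 1.17 with Hlc dsRNA, against 2.42 and 2.55 in the controls. The ratio was 54.9% lower, with no overlap (exact two-sided permutation p = 0.0667, the smallest possible, for a pair chosen after its values were seen). Per length, UQCR-C1 stood at 192 ± 8.72 CPM per kb with Hlc dsRNA and 442 ± 29.2 CPM per kb in the controls (SD, n = 4 and 2), where only ATPsyngamma and COX5A were above it among the subunits.

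Small subunits of complex III went the other way or were not called. UQCR-Q, a small subunit at the quinone-binding side, had 179, 187, 157 and 155 CPM with Hlc dsRNA, against 136 and 128 CPM in the controls. It rose without overlap (0.35, SE 0.05, adjusted p 0.000357 by edgeR). UQCR-6.4 was called higher (0.44, SE 0.15, adjusted p 0.0407 by edgeR) although its groups overlapped, at 55.0, 56.7, 44.6 and 31.1 CPM with Hlc dsRNA against 37.6 and 30.3 CPM in the controls. It shares 40.5% of its exonic bases with POSH on the opposite strand. Its call was lost without control replicate 2 (adjusted p 0.252), dsRNA 2 replicate 1 (0.0586), dsRNA 2 replicate 2 (0.0695) or dsRNA 3 replicate 1 (0.0565). UQCR-14 was at -0.07 and overlaps CG32576 over its whole exonic length.

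The subunits of complex I, the largest, were called in both directions. Of its 33 tested subunits 5 were higher, 7 lower and 21 not called, or 36.4% called against 64.8% of all features. The median change was -0.00 on the log2 scale. With dsRNA 2 there were 9 higher and 3 lower (median 0.14), and with dsRNA 3 there were 2 higher and 11 lower (median -0.17), both against the same controls. Of all features 30.4% were higher and 30.3% lower with dsRNA 2, and 29.9% and 31.6% with dsRNA 3. With the trend on length removed, dsRNA 2 had 4 higher and 7 lower, and dsRNA 3 had 2 and 8. The dsRNA 2 median was 0.04 without control replicate 2 and 0.10 without dsRNA 2 replicate 2. In dsRNA 3 over dsRNA 2 all 33 were negative, with none called. The 7 core subunits of the peripheral arm carry the flavin and the iron-sulfur clusters that lead electrons from NADH to quinone, and among them ND-51, ND-75 and ND-20 were lower, ND-23 higher and 3 not called (median -0.09). The 25 accessory subunits, which surround this core, had 4 higher, 4 lower and 17 not called (median 0.00).

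ND-51, which binds NADH and the flavin (FBgn0031771, chromosome 2L, 6060842 to 6062757, minus strand), had 174, 192, 175 and 142 CPM with Hlc dsRNA, against 246 and 227 CPM in the controls. It fell without overlap (-0.47, SE 0.09, adjusted p 0.00251 by edgeR). ND-75, the largest iron-sulfur subunit, had 168, 175, 169 and 156 CPM with Hlc dsRNA, against 244 and 204 CPM in the controls, and it also fell (-0.42, SE 0.08, adjusted p 0.00206 by edgeR). With library size alone ND-51 was at 0.11 and ND-75 at 0.16, and neither was called.

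A neighbour in the electron path was not called. ND-49, a core subunit at the quinone site, stood at 145, 135, 141 and 139 CPM with Hlc dsRNA, against 137 and 131 CPM in the controls (0.06, adjusted p 0.309 by edgeR). ND-51 over ND-49 per kb was 1.205, 1.43, 1.25 and 1.03 with Hlc dsRNA, against 1.80 and 1.73 in the controls. ND-75 over ND-49 was 0.702, 0.783, 0.727 and 0.679 with Hlc dsRNA, against 1.08 and 0.938 in the controls. Neither ratio overlapped between groups (exact two-sided permutation p = 0.0667 each, for pairs chosen after their values were seen). ND-75, ND-20, ND-23 and ND-49 were named after their values were seen. Without control replicate 1, the calls of ND-20 (adjusted p 0.0747) and ND-23 (0.0623) were lost, and 3 complex I subunits were lower in place of 7.

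Among the accessory subunits of complex I, the largest fall was in ND-B16.6, a membrane arm subunit whose mammalian counterpart is GRIM-19. It had 105, 106, 95.1 and 93.7 CPM with Hlc dsRNA, against 142 and 132 CPM in the controls (-0.46, SE 0.05, adjusted p 9.98e-05 by edgeR). The largest rise was in ND-AGGG, a small membrane arm subunit, with 94.1, 84.6, 82.7 and 62.5 CPM with Hlc dsRNA, against 50.6 and 53.5 CPM in the controls (0.63, SE 0.11, adjusted p 0.00219 by edgeR). Groups did not overlap in either gene. ND-15 was called higher (0.28, adjusted p 0.0359 by edgeR), but its groups overlapped, and the call was lost without control replicate 1 (0.0928), control replicate 2 (0.172) or dsRNA 2 replicate 2 (0.0803).

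Complex IV, cytochrome c oxidase, had 1 of 7 tested subunits higher, 2 lower and 4 not called, with a median of -0.03. That is 42.9% called, against 64.8% of all features. COX5B, a zinc-binding subunit on the matrix side, had 116, 128, 107 and 76.0 CPM with Hlc dsRNA, against 164 and 143 CPM in the controls. It fell without overlap (-0.54, SE 0.13, adjusted p 0.00900 by edgeR), at -0.33 with dsRNA 2 (adjusted p 0.103) and -0.74 with dsRNA 3 (adjusted p 0.00467). The call was lost without control replicate 1 (-0.44, adjusted p 0.078 by edgeR). Per kb, COX5B over COX4 was 0.751, 0.769, 0.791 and 0.689 with Hlc dsRNA, against 1.07 and 1.04 in the controls, again without overlap.

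COX6B, a subunit facing the intermembrane space where cytochrome c docks, had 233, 242, 208 and 234 CPM with Hlc dsRNA, against 206 and 185 CPM in the controls (0.23, SE 0.07, adjusted p 0.0191 by edgeR). The lowest Hlc dsRNA library stood just above the higher control. With the length trend removed, the COX6B call was lost (0.18, adjusted p 0.0817 by edgeR). It was also lost without control replicate 2 (log2 fold change 0.15) or dsRNA 2 replicate 2 (0.22). COX7A was called lower by a narrow margin (-0.18, adjusted p 0.048 by edgeR), and its groups overlapped. Its call was lost on leaving out any single library other than control replicate 2, and without control replicate 1 it was at -0.06 (adjusted p 0.379).

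In complex V no subunit was called lower in the comparison of both Hlc dsRNAs with control. Of its 11 tested subunits 6 rose and 5 were not called, with a median of 0.21, against 0.04 for all features, of which 32.2% were higher. With dsRNA 2 there were 8 higher and 0 lower (median 0.31), and with dsRNA 3 there were 3 higher and 1 lower (median 0.08), both against the same controls. Of all features 30.4% were higher with dsRNA 2, and 29.9% were higher and 31.6% lower with dsRNA 3. The dsRNA 2 median was 0.25 without control replicate 2 and 0.27 without dsRNA 2 replicate 2. The lower call with dsRNA 3 was absent with DESeq2, with limma-voom and with the length trend removed. The rises with both Hlc dsRNAs were ATPsynF, ATPsynC, ATPsynbeta, ATPsynB, ATPsyndelta and ATPsynO, the last 4 named after their values were seen. ATPsyndelta shares 35.6% of its exonic bases with CG2962, and its call was lost with the length trend removed (0.16, adjusted p 0.0899 by edgeR). They spread over the parts of the enzyme, with medians of 0.23 in the catalytic head and rotor (3 genes), 0.24 in the membrane part (4 genes) and 0.15 in the stalk (4 genes). Complex V summed to 4285, 4507, 4126 and 3686 CPM with Hlc dsRNA, against 3620 and 3327 CPM in the controls, so every Hlc dsRNA library was higher, dsRNA 3 replicate 2 by the least. The number of rises was 3 without control replicate 2, where ATPsynB, ATPsynO and ATPsyndelta lost their calls, and 4 without dsRNA 2 replicate 2, where ATPsynB and ATPsynO did. Both also lost them without dsRNA 3 replicate 1, and ATPsynB without control replicate 1.

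ATPsynF, subunit f of the membrane part (FBgn0035032, chromosome 2R, 24599088 to 24599821, minus strand), had the largest rise of any subunit. It had 354, 396, 327 and 251 CPM with Hlc dsRNA, against 220 and 190 CPM in the controls, without overlap (0.68, SE 0.12, adjusted p 0.00169, edgeR's quasi-likelihood test with Benjamini-Hochberg adjustment). The change was 0.87 with dsRNA 2 and 0.49 with dsRNA 3. Over the stalk subunit ATPsynD per kb, it was 2.50, 2.72, 2.51 and 1.85 with Hlc dsRNA, against 1.58 and 1.56 in the controls.

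ATPsynC codes for the ring of the membrane rotor that protons turn. It had 759, 750, 765 and 751 CPM with Hlc dsRNA, against 615 and 574 CPM in the controls (0.35, SE 0.05, adjusted p 0.000758 by edgeR). ATPsynbeta, the catalytic subunit that makes ATP, had 688, 708, 755 and 655 CPM with Hlc dsRNA, against 570 and 568 CPM in the controls (0.30, SE 0.07, adjusted p 0.00564 by edgeR). In both genes every Hlc dsRNA library was above both controls. ATPsyngamma was not called (0.17, adjusted p 0.0972 by edgeR), and blw, the alpha subunit that pairs with beta in the catalytic head and lies outside the symbol rule, was at -0.03.

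Each dsRNA was also set against control by itself. With dsRNA 2, 21 of 65 members tested were higher and 6 lower, where 30.4% of all features were higher and 30.3% lower, and the subunits' median was 0.18. With dsRNA 3, 6 members were higher and 17 lower, where 29.9% of all features were higher and 31.6% lower, and the subunits' median was -0.11. The dsRNA 2 calls depended on single libraries: without control replicate 2 there were 6 subunits higher and 9 lower, and without dsRNA 2 replicate 2 there were 6 higher and 6 lower. With a trend on length removed from every library there were 13 higher and 12 lower. These contrasts share the controls, so the difference was tested directly between the dsRNAs.

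In that direct test no member was called, and 0.0797% of all features were (0.0177% higher and 0.062% lower). The median log2 difference of the subunits, dsRNA 3 over dsRNA 2, was -0.25, against 0.00 for all features, and 56 of 61 were negative. Both dsRNA 3 libraries lay below both dsRNA 2 libraries for 50 of 61 subunits, an arrangement found in 27.8% of all features and in 32.5% of features at or above the level of the lowest subunit. SdhA was the 1 subunit with the opposite arrangement. At an unadjusted p under 0.05, edgeR's quasi-likelihood test picked 39 members, and after Benjamini-Hochberg adjustment DESeq2 called 26 members lower and limma-voom 1. Of all features, DESeq2 called 5.68% lower and limma-voom 1.84%.

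The difference varied with exonic length. For the 40 subunits with under 1000 exonic bases the median was -0.30, against -0.23 for all features of that length. For the 21 longer subunits it was -0.18, against 0.03 for all longer features. Both dsRNA 3 libraries were below both dsRNA 2 libraries in 84% of features of under 1000 bases at or above the lowest subunit's level, and in 26.1% of longer ones. For the subunits this held for 37 of 40 short genes (92.5%) and 13 of 21 longer ones (61.9%). With the trend on length removed from every library, a step chosen after seeing the data like the length split, the medians were -0.11 for short and -0.11 for long subunits.

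**Figure D4:**
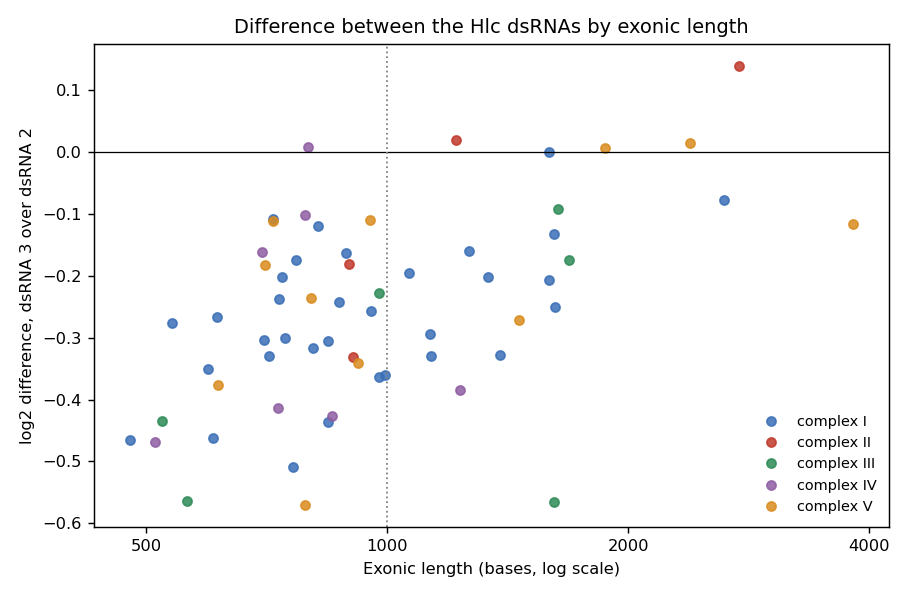
Log2 difference of dsRNA 3 over dsRNA 2 (y axis) against exonic length in bases (log x axis) for 61 subunits, coloured by complex; the dotted line marks 1000 bases. Nearly all points are below 0, and the shorter genes lie lower (Pearson r 0.52, Spearman rho 0.45 across genes, which share the same 4 libraries and are not independent).

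Libraries of both dsRNAs stood apart from their replicates in this contrast. Dividing the 61 subunits by the library in which each was lowest, 32 were lowest in dsRNA 3 replicate 2, 7 in dsRNA 3 replicate 1, 2 in dsRNA 2 replicate 1, 2 in control replicate 1 and 18 in control replicate 2. The library in which a subunit was highest was dsRNA 2 replicate 2 for 35 of them and control replicate 1 for 18. Without dsRNA 2 replicate 2 the medians of the difference were -0.24 for short and -0.13 for long subunits. Without dsRNA 3 replicate 2 they were -0.20 and -0.13. Without dsRNA 3 replicate 1 they were -0.41 and -0.18, and 7 members were then called lower, as were 1.02% of all features. What part length or a single library had in the difference was not tested beyond these values.

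Subunits whose symbols fall outside the rule also had small changes, between -0.18 and 0.31 on the log2 scale. Of 9 such subunits 3 were higher and 1 lower, or 44.4% called against 64.8% of all features, with a median of -0.00. Cyt-c1, the cytochrome of complex III, was at 0.24 (adjusted p 0.00125 by edgeR), sun, the epsilon subunit of ATP synthase, at 0.25, and ox, a small subunit of complex III, at 0.31. Cytochrome c itself, Cyt-c-p, was lower at -0.18 (adjusted p 0.0165 by edgeR).

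Subunits of the same complexes encoded in mitochondrial DNA stood higher than the nuclear ones. Of these 13 transcripts 12 were called higher, with a median of 1.07. Of all features 32.2% were called higher, and their median was 0.04. Their median in complex I was 1.24, against -0.00 for nuclear subunits, in complex IV 0.62 against -0.03, and in complex V 1.08 against 0.21, while the single complex III gene, mt:Cyt-b, was at 0.65 against 0.02. The gene mt:ND4L, named after its value was seen, was not called at -0.16. The difference between the nuclear and mitochondrial sets was not tested.

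**Figure D5:**
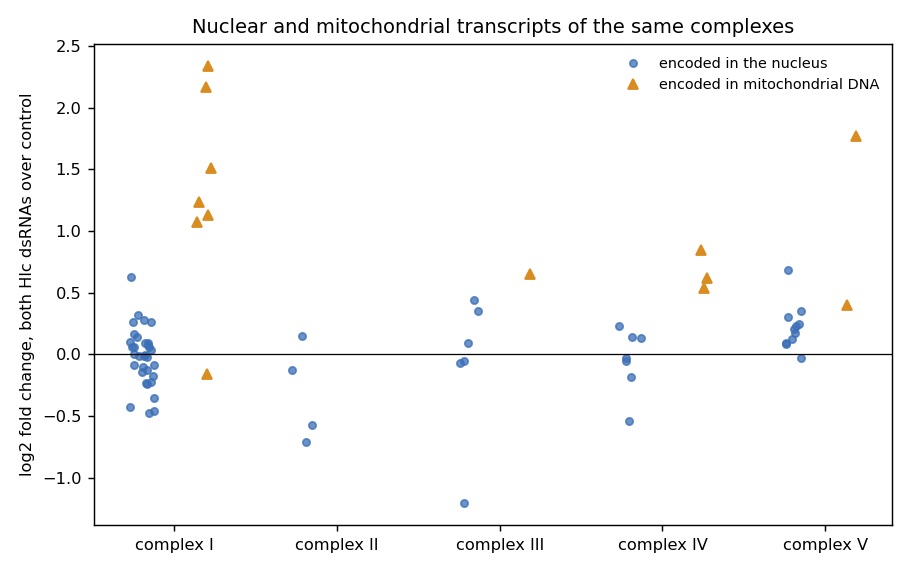
Log2 fold change of both Hlc dsRNAs over control (y axis) for 61 subunits encoded in the nucleus (blue circles) and 13 encoded in mitochondrial DNA (orange triangles), by complex. Triangles lie above the median of the nuclear subunits in each complex except for mt:ND4L at -0.16, and complex II has none.

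Other nuclear genes of mitochondria were called in both directions, and their counts are to be read against the 64.8% of all features called. Of 5 assembly factors tested, 3 fell and 1 rose, with Ttc19, which acts on complex III, at -0.65, sicily and CIA30, which act on complex I, at -0.50 and -0.26, and the copper chaperone Scox at 0.34. Of 14 genes of the citric acid cycle and pyruvate dehydrogenase 6 fell and 3 rose, or 64.3% called. Nc73EF, a subunit of the oxoglutarate dehydrogenase complex, was at -0.65 and ScsbetaA, of succinyl-CoA synthetase, at -0.45, while its GTP-linked counterpart ScsbetaG was at 1.14 and the citrate synthase kdn at 1.24. Succinyl-CoA synthetase makes the succinate that complex II oxidises.

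Carriers that feed the ATP synthase also fell in part. The phosphate carrier Mpcp2 had 594, 617, 614 and 610 CPM with Hlc dsRNA, against 1096 and 1025 CPM in the controls (-0.80, SE 0.05, adjusted p 7.95e-06 by edgeR). The adenine nucleotide translocase sesB was at -0.30, its lowly expressed relative Ant2 at 1.34 and the outer membrane channel porin at 0.61. Of 11 import genes tested 4 rose and 3 fell, or 63.6% called. The matrix chaperone Hsc70-5 was at -0.81, its exchange factor Roe1 at -0.47, the import gene mge at 0.67 and the receptor Tom70 at 0.50. Tim13 was at 0 in every library.

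Among 12 nuclear regulators of mitochondrial genes 4 rose and 3 fell, or 58.3% called. The fly PGC-1 homologue srl, a coactivator of mitochondrial genes, had 76.0, 74.2, 72.9 and 79.1 CPM with Hlc dsRNA, against 29.4 and 34.3 CPM in the controls, without overlap (1.25, SE 0.08, adjusted p 7.79e-06 by edgeR). Its partner in mammals, the nuclear receptor ERR, was at -0.60 in the fly gene, the mitochondrial RNA stability factor bsf at -0.45 and the mitochondrial DNA polymerase tam at 0.53. Of 73 mitochondrial ribosomal protein genes 27 rose and 18 fell, or 61.6% called, with a median of 0.11. The shares called in these last 3 lists and in the citric acid cycle list were close to or below that of all features. Those of lowest adjusted p were mRpL28 (-1.43), mRpS22 (-0.98), mRpL39 (-0.76) and mRpS9 (-0.77). Like the respiratory subunits, they had a negative median in dsRNA 3 over dsRNA 2, at -0.32. In that contrast all features of under 1000 exonic bases were at -0.23, the import genes at -0.17 and the citric acid cycle list at 0.09.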

How the data were processed

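Poly(A) RNA of 6 S2 cell libraries was measured as read counts per gene, which the authors deposited as 1 table of raw counts. Per the submitters' processing notes, Trimmomatic 0.36, TopHat2 2.1.0, StringTie 2.1.7 and the genome build BDGP6 were used. How reads on several genes, on overlapping genes or on either strand were counted is not given in the sources used here, so genes that overlap (32 of 61 subunits share exonic bases with another gene) and near-identical paralogues are uncertain. Each column was matched to a library by its label.

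From the counts, edgeR 4.0.16 (R 4.3.3) filtered features with filterByExpr (11293 of 23882 kept), computed TMM factors and fitted its quasi-likelihood model to all 6 libraries, with 3 residual degrees of freedom. Calls are Benjamini-Hochberg adjusted p-values under 0.05 over all features tested. SE is the absolute log2 fold change over the root of its F statistic. Exonic lengths and positions are from the Ensembl annotation BDGP6.54, release 115, which matched 99.7% of features. Ratios within libraries, of genes paired after their values were seen, were compared by exact two-sided permutation. The limit given for a count of 0 (3 counts) reflects counting error alone. Simulated data with known changes were used to test the fit. Only a small part of the features was changed there, up or down alike. The simulation therefore cannot test the scaling in these data, where 64.8% of features were called. Alternatives were DESeq2 1.42.0, limma-voom (limma 3.58.1), other scalings and filters, a replicate block, fits to the compared groups only, leaving out each library and, chosen after seeing the data, removing a trend on length.

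The members, roles and companion lists were chosen with earlier results of these data known. Named were, per complex, the 2 called members with the largest rise, the 2 with the largest fall and the 2 of highest level per length in the controls; members called between dsRNAs; all paralogues; members under the filter; and up to 4 genes of smallest adjusted p per companion list.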

Additional observations from a re-analysis of the deposited data

How the results depend on the processing

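Counts of called members moved with the scaling, the library left out, the length trend and the test. Of members higher with both Hlc dsRNAs there were 14, against 26 (upper-quartile factors) and 55 (library size alone), and 6 to 20 when 1 library was left out. Of members lower there were 13, against 8 and 2 under the same scalings, and 6 to 14 without 1 library. With dsRNA 2 alone, 21 were higher, against 35 with upper-quartile factors, 55 with library size alone, 13 with the length trend removed and 6 to 26 without 1 library, and 6 were lower, against 2 with library size alone, 12 with the length trend removed and 5 to 9 without 1 library. With dsRNA 3 alone, 6 were higher, against 12 with upper-quartile factors, 49 with library size alone and 4 to 9 without 1 library, and 17 were lower, against 8, 1 and 12 to 24. Between the dsRNAs none was called, against 26 lower with DESeq2, 1 with limma-voom and 0 to 7 without 1 library. The cause of these shifts was not tested. Leaving out a library leaves 1 sample in an arm, assumed to vary like the other groups.

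With library size alone the direction reversed for SdhB (0.0101), ND-20 (0.36), COX5B (0.045), ND-18 (0.40), ND-51 (0.11), ND-42 (0.23), COX7A (0.40), ND-B16.6 (0.13), ND-SGDH (0.35) and ND-75 (0.16).

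Replicate numbers did not pair the libraries: deviations of same-numbered libraries correlated at -0.0446 for dsRNA 2 and control, 0.00344 for dsRNA 3 and control and -0.0322 for dsRNA 3 and dsRNA 2. With a replicate block, 14 members were higher and 14 lower for both dsRNAs, 21 and 7 for dsRNA 2, 5 and 15 for dsRNA 3, and 0 between dsRNAs. SdhC was then not called with dsRNA 2.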
